A study of Mus musculus with 36 samples.

Results

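The comparison described here follows unlit cultures of mouse embryonic stem cells over 1 h. It sets 6 dark libraries taken at 1 h against 6 dark libraries taken at 0 h, which together are 12 of the 36 libraries of the series. They were chosen by their labels, without use of any measured value: no blue light, and RNA taken at 0 h or 1 h. Each time point held 3 libraries of wild-type (WT) cells and 3 of cells transfected with LiTEC, the light-responsive construct of the study. All cultures, dark and lit, had received doxycycline at 2 µg/ml for 2 days and grew at 37 °C in serum-free medium with a MEK inhibitor, a GSK3β inhibitor and leukaemia inhibitory factor (LIF). The lit cultures of the series stood on a blue LED panel for 30 min, and the clock for all cultures starts after that period. Whether the replicates were separate cultures, and whether the LiTEC cells were 1 clone or a pool, is not given in the labels. The p-values therefore reflect how far these libraries scatter, part of which may be technical. The question is what changes in cells that received no light, which is the drift against which a light response of the same hour would be read.

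Embryonic stem cells held with MEK and GSK3β inhibitors and LIF cycle fast and spend much of their cycle copying DNA. Replication-dependent histone genes, which lie in clusters and supply the proteins that package new DNA, are transcribed with S phase. Their mRNAs end in a conserved stem-loop in place of a poly(A) tail, and both the stem-loop and its binding protein SLBP control how long these mRNAs last. Immediate early genes and feedback genes of LIF signalling have short-lived mRNAs, so their levels can move within an hour of a change in the medium or in handling.

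Depth was similar at both times. The 12 libraries held 13272314 to 21842256 counts, with a median of 16289964.5. The ribosomal RNA locus Gm26917 took 8.98 to 10.7% of counts at 0 h and 8.52 to 11.4% at 1 h, and mitochondrially encoded genes took 1.87 to 2.55% and 2.01 to 2.37%. One dark library outside the comparison, WT 4 h replicate 3, stood apart: Gm26917 took 26.1% of its counts, against 8.12 to 10.8% in the other 5 dark 4 h libraries, and mitochondrial genes 1.14% against 1.72 to 2.29%. It shares in the estimate of the spread and gives 4 h values, so results are also given without it, a choice made after the values were seen. The summed level of 10 embryonic stem cell markers was 3498 to 4675 CPM (counts scaled to a common library size) at 0 h and 3484 to 4821 CPM at 1 h. The summed markers of fibroblasts and feeders reached at most 9.25 CPM in any of the 12 libraries, with Lum at 0 in all of them. Those of primitive endoderm, mesendoderm and neuroectoderm reached at most 21.9 CPM, those of trophectoderm 1.12 CPM and those of 2-cell-like cells 27.3 CPM. No tested marker of any of these cell types passed the test between 0 h and 1 h. Not all markers were tested: 4 of 7 were for fibroblasts and feeders, 5 of 6 for primitive endoderm and 3 of 4 for neuroectoderm. For trophectoderm it was 1 of 3, and for 2-cell-like cells 3 of 5.

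Over the dark hour, 239 of 18193 tested genes passed the test, 112 higher and 127 lower at 1 h. The test was edgeR's quasi-likelihood test with a term for batch, and a gene was called at a Benjamini-Hochberg adjusted p below 0.05. The share called was 1.31% of tested genes, made up of 0.616% called higher and 0.698% called lower, and 2237 genes (12.3%) had an unadjusted p below 0.05. Changes were small: the median size was 0.38 on the log2 scale among genes called higher and 0.34 among those called lower. Only 33 of the higher and 22 of the lower genes moved by at least 0.5, and 10 of the higher and 0 of the lower by at least 1. The 6 libraries of each time did not overlap for 112 of all tested genes (0.616%), 63 higher at 1 h (0.346%) and 49 lower (0.269%). Among the called genes this held for 31 of the 112 higher and 30 of the 127 lower.

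The number of calls depended on how library numbers were treated. Same-numbered libraries deviated together, and with the replicate number as a block in place of batch 526 genes were called, which included all 239. Without WT 4 h replicate 3 in the fit 345 genes were called, again with all 239 among them. Calls fell to 41 in batch 2 alone and to 86 without a batch term. Leaving out 1 library gave 99 to 271 calls: 99 without WT 1 h replicate 1, 147 without WT 1 h replicate 3, 156 without WT 0 h replicate 1, 124 without WT 0 h replicate 2, 159 without LiTEC 0 h replicate 1, 157 without LiTEC 0 h replicate 2, 126 without LiTEC 1 h replicate 2 and 119 without LiTEC 1 h replicate 3.

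**Figure D1:**
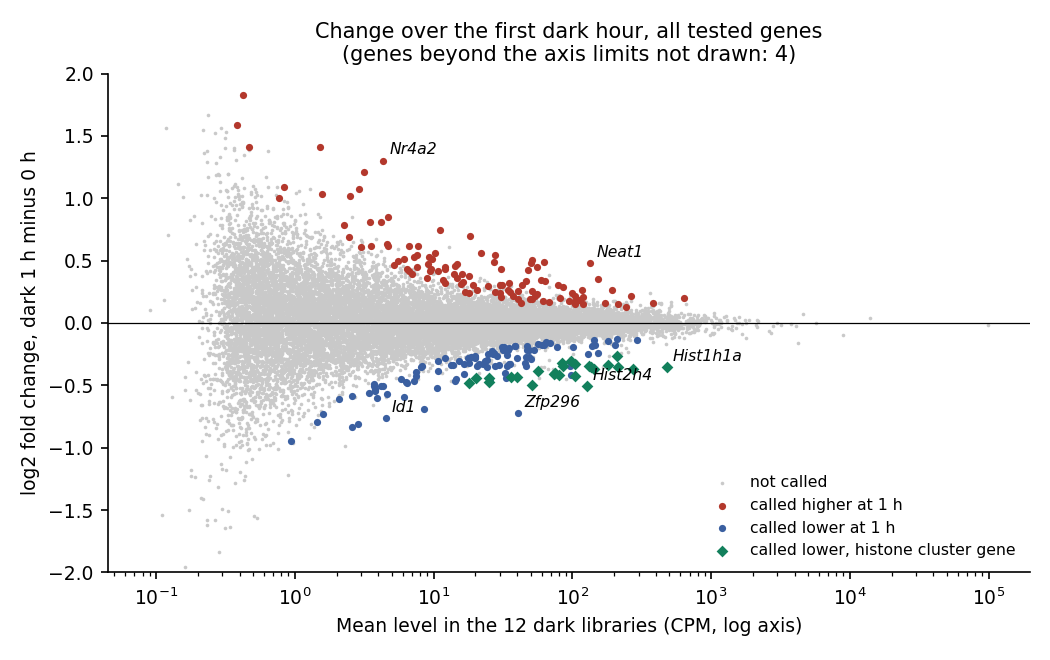
Each point is 1 of the 18193 tested genes, with its mean level over the 12 dark libraries (CPM, log axis) and its log2 fold change from 0 h to 1 h in the dark. Red and blue points are called higher and lower, green diamonds are the 25 called histone cluster genes, which lie together between -0.51 and -0.27. The 4 genes beyond 2 on the log2 scale are not drawn.

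The genes that fell included the histone clusters. Of 25 replication-dependent histone genes in a list of clustered core and linker histones, 24 were measured, and 14 of these fell, none rose and 10 were not called, where 0.698% of all tested genes were called lower. The list's median log2 fold change was -0.35 beside 0.00 for all tested genes, and all 24 members lay below 0. Among all 63 tested protein-coding genes of the Hist1 to Hist4 clusters, a group set after the values were seen, 25 fell, none rose and 61 lay below 0. By protein, 4 of 6 genes for H1, 6 of 15 for H2A, 5 of 18 for H2B, 9 of 11 for H3 and 1 of 13 for H4 were called lower, with medians of -0.35, -0.39, -0.38, -0.33 and -0.26. The list's 14 calls became 5 without LiTEC 1 h replicate 2, 6 without WT 1 h replicate 1, 7 without LiTEC 1 h replicate 3, 8 without LiTEC 0 h replicate 3 and 9 without WT 0 h replicate 2. In batch 2 alone 6 of the 24 were called, with all 24 below 0. With the replicate block, 39 of the 63 were called lower, and 5 of the 13 H4 genes were among them. Without WT 4 h replicate 3, 35 of the 63 were called lower. Many of these genes are near-identical copies, and how reads that match several places were counted is not given in the sources used here, so the split of counts between single members is uncertain. The labels name a stranded mRNA kit, a kind that captures RNA by its poly(A) tail, and which forms of the histone mRNAs were caught was not tested. In bulk RNA, fewer cells that make these mRNAs and less of them per cell cannot be told apart.

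The stem-loop that marks these mRNAs is shown for a few members, since it was found in 19 of the 25 called histone genes, and the rule of the comparison did not use it. It was also found in 23 of the 38 uncalled ones, so it does not separate them. Each line gives 26 bases of the GENCODE M21 transcript, read 5′ to 3′ as DNA, with the 16 bases of stem and loop in capitals and 5 bases on either side. The lines are from GRCm38 chr3:96262934-96262959 (minus strand), chr3:96220413-96220438 (minus), chr13:23621777-23621802 (minus), chr13:23544927-23544952 (plus), chr13:23535884-23535909 (plus) and chr13:23581945-23581970 (plus). The first 5 genes fell and Hist1h4d, an H4 gene, was not called.
Hist2h4: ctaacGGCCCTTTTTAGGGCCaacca
Hist2h2ac: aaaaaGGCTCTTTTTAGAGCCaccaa
Hist1h1e: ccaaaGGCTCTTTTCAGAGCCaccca
Hist1h3f: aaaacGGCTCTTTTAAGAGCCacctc
Hist1h3g: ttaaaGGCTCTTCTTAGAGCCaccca
Hist1h4d: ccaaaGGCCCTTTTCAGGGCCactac
A search of the sense strand in the first 100 bases after the stop codon, for GGNNNT, then TNTN, then ANNNCC with the outer 6 bases reverse complements of each other, found this element in 42 of the 63 histone genes. It was present in all 19 called genes that had at least 60 annotated bases after the stop codon and in 22 of 26 uncalled ones. Outside the clusters it was found in 2 of 13638 tested genes with a stop codon (0.0147%), H2afx and Ttc14. The form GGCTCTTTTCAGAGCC occurred in 22 genes, of which 12 fell, and the form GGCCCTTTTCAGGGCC in 7 genes, all for H4, of which 0 were called. The element began 21 to 58 bases after the stop codon, and 3 to 4884 annotated bases followed it.

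Hist2h4, a gene for histone H4 (chromosome 3, 96261682 to 96263311), had 142, 147 and 159 CPM as its lowest, median and highest level in the 6 dark libraries at 0 h, and 85.2, 104 and 122 CPM at 1 h. The libraries of both times did not overlap. Its log2 fold change was -0.51 ± 0.0813 (SE; adjusted p = 0.000423, edgeR), with -0.35 in batch 1 and -0.59 in batch 2. Hist2h2ac, for H2A, went from 51.7, 58.6 and 66.2 CPM to 39.1, 41.5 and 48.1 CPM, again without overlap (-0.49 ± 0.0707, adjusted p = 8.22e-05, edgeR). Hist1h3g, for H3, went from 104, 122 and 133 CPM to 80.3, 85.7 and 101 CPM, also without overlap (-0.43 ± 0.0669, adjusted p = 0.000302, edgeR). The linker histone genes had overlapping ranges. Hist1h1e ran from 122 to 192 CPM at 0 h and from 102 to 135 CPM at 1 h (-0.37 ± 0.0598, adjusted p = 0.000423, edgeR). Hist1h1d ran from 267 to 348 CPM and from 212 to 282 CPM (-0.37 ± 0.0617, adjusted p = 0.00062, edgeR). All 5 genes were lower at 1 h in 6 of 6 same-numbered pairs and stayed called on leaving out any of the 12 libraries. Of the 25 called histone genes, 23 were lower in 6 of 6 pairs and the other two in 5, 9 kept their call whichever library was left out, and 19 of all 63 had ranges that did not overlap, all lower, where 0.269% of tested genes did so.

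Summed over the 63 genes, histone cluster mRNA was 5645, 6094 and 6914 CPM (lowest, median, highest) at 0 h and 4429, 5009 and 5488 CPM at 1 h, with no overlap. The sum was lower at 1 h in all 6 same-numbered pairs. The change was -18.9, -16.3 and -14.2% in WT replicates 1 to 3, and -9.41, -27.7 and -30.1% in LiTEC replicates 1 to 3. At 4 h in the dark it was 5681, 6379 and 6756 CPM, within the range of the 0 h libraries. The highest of these is WT 4 h replicate 3, and the other 5 libraries ran from 5681 to 6519.8 CPM. In the lit cultures, which share no library with the dark ones, it was 4602, 5526 and 6744 CPM at 0 h, 3807, 4288 and 4936 CPM at 1 h and 5756, 6235 and 6679 CPM at 4 h. Over the lit hour 19 of the 24 listed genes fell, where 4.55% of all tested genes were called lower, and the lit and dark changes differed for 0 of 24.

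**Figure D2:**
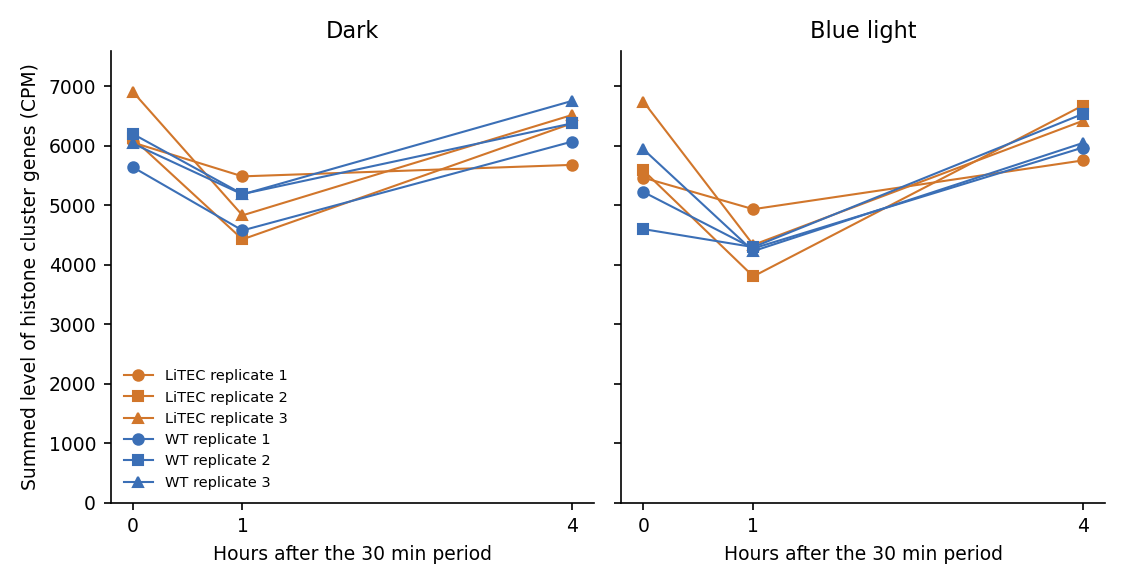
Summed CPM of the 63 tested histone cluster genes in each dark (left) and lit (right) library at 0, 1 and 4 h, with lines joining same-numbered libraries, colours for genotype and marker shapes for replicate. In the dark the 1 h libraries (4429 to 5488 CPM) lie below all 0 h libraries (5645 to 6914 CPM).

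Of 11 histone variants outside this group, chosen after the values were seen, 0 passed the test, where 1.31% of all tested genes were called. Replacement variants such as H2A.Z and H3.3 are made through the whole cell cycle from mRNAs with poly(A) tails. This need not hold for each of the 11 variants taken here. H2afz, for H2A.Z, had a median of 382 CPM at 0 h and 381 CPM at 1 h, with a log2 fold change of -0.00 ± 0.0587 (SE). H3f3b, for H3.3, had 370 and 383 CPM (0.04 ± 0.0315). The lowest value of the 11 variants was that of H1f0, a linker histone of cells that divide slowly, at -0.21 ± 0.0824 (adjusted p = 0.258, edgeR). The summed level of the 11 variants was 1596 to 1776 CPM at 0 h and 1603 to 1753 CPM at 1 h. H2afx, which held the stem-loop and whose transcripts also end in a poly(A) tail, had -0.02 ± 0.0581 (SE). Slbp, for the stem-loop binding protein, was at 109 and 116 CPM (0.06 ± 0.0505). It is 1 of 7 genes for histone mRNA processing and transcription, also chosen after the values were seen, of which 0 were called. Of 28 listed genes of G1/S and DNA replication 0 were called (median 0.05), and of 25 of G2/M and mitosis 0 were called (median -0.02). In groups of these sizes, 0 calls is near the share over all genes. Asf1b and Hira, for histone chaperones, were named after their values were seen. Asf1b, which hands H3 and H4 to replicating DNA, fell from a median of 40.6 to 35.1 CPM (-0.18 ± 0.0418, adjusted p = 0.0181, edgeR). Hira, which deposits H3.3, rose from 27.6 to 32.4 CPM (0.24 ± 0.0549, adjusted p = 0.0169, edgeR). The call of Asf1b was lost without LiTEC 1 h replicate 3, WT 0 h replicate 2 or WT 1 h replicate 1 (adjusted p up to 0.0789), and that of Hira on leaving out any 1 of 5 libraries (up to 0.0774).

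**Figure D3:**
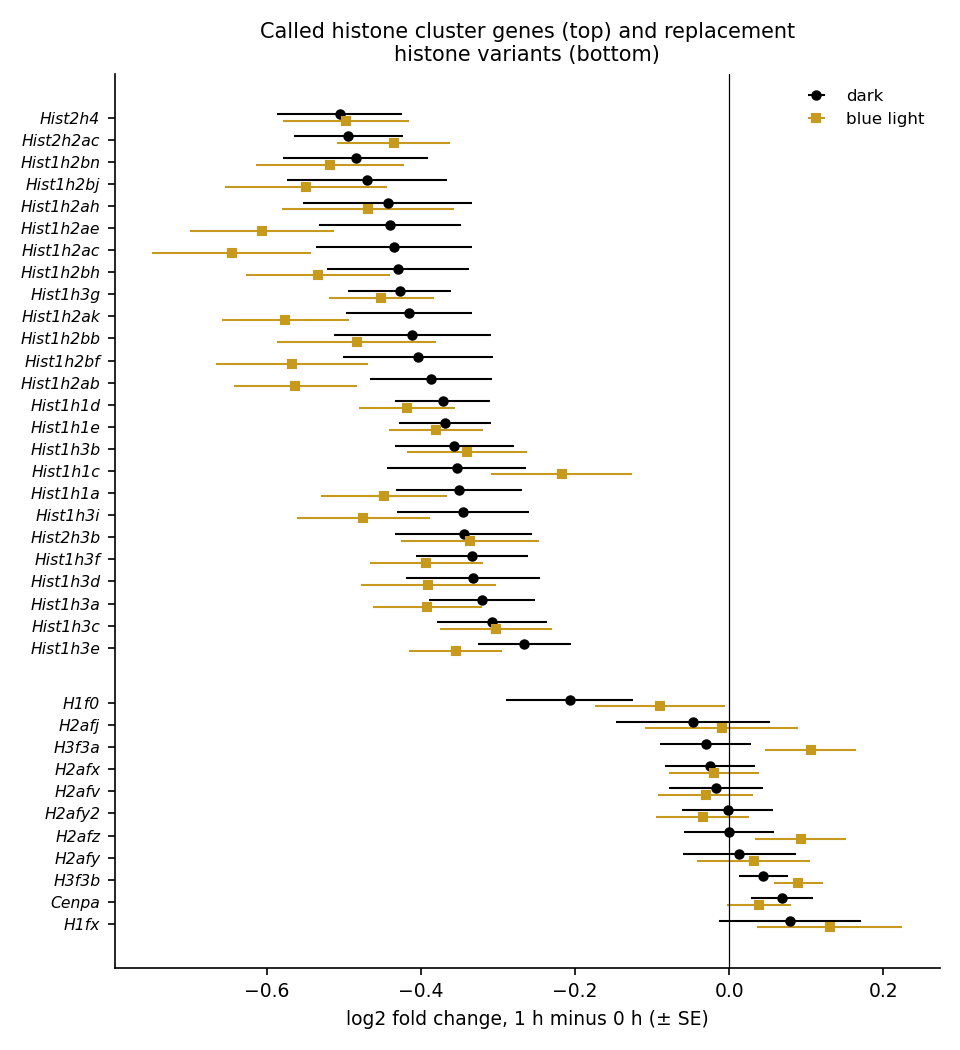
Log2 fold change from 0 h to 1 h (± SE of the fit) in dark (black circles) and lit (yellow squares) cultures for the 25 histone cluster genes called in the dark and 11 replacement variants. The cluster genes lie below 0 in both, and the variants lie near 0.

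Promoters were searched on both strands in the 300 bases of the RefSeq GRCm38.p6 promoter table (250 before to 50 after a start, first listed start per gene), which matched 11589 tested genes, 70 of those called higher and 88 of those called lower. Motifs were counted separately, so 1 stretch can count for more than 1 motif. The heat shock element core GAANNTTC was in 7.14% of higher, 12.5% of lower and 5.76% of all matched promoters. The cAMP response element TGACGTCA was in 2.86, 2.27 and 3.18%, the E-box CACGTG in 10, 4.55 and 10.1%, and the antioxidant response element TGACNNNGC in 21.4, 10.2 and 14.4%. The ATF4 element TGATGNAA was in 1.43, 4.55 and 2.17%, and the sterol element TCACNCCAC in 2.86, 4.55 and 1.16%. The CCAAT box (CCAAT) and the TATA box (TATAAA), added after the values were seen, were in 67.0% and 22.7% of the lower promoters against 39.3% and 7.46% of all. Without histone cluster genes these shares were 56.1% and 7.58%, and in 58 histone cluster promoters they were 84.5% and 58.6%. Some of these windows, such as those of Hist1h2ag and Hist1h2bj, are nearly the same stretch read from either strand. A single motif can therefore count for more than 1 gene. These counts describe letters in a window only. The 250 bases before the start of Hist2h2ac (chr3:96220881-96221130, minus strand) and Hist1h1e (chr13:23622559-23622808, minus strand) show both motifs, in capitals on either strand.
Hist2h2ac promoter: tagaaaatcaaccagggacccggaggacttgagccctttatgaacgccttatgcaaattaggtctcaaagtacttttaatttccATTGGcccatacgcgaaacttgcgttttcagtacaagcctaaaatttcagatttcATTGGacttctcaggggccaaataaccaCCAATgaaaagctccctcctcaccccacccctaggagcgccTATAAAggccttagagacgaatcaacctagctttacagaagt
Hist1h1e promoter: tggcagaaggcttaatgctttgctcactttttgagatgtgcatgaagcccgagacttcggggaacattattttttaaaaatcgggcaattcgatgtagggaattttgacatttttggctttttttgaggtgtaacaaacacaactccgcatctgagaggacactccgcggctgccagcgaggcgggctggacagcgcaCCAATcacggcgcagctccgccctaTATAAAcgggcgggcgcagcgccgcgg

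Beyond the histones, 7 genes, of which Nemp1, Zbtb34 and Slc9a8 were named after their values were seen, were called in each genotype alone: Zfp296, Rsrp1, Nemp1 and Zbtb34 lower, and Ap4m1, Dgke and Slc9a8 higher. Zfp296, for a zinc finger protein of pluripotent cells, had the smallest p of all genes. It went from 45.4, 49.2 and 58.6 CPM (lowest, median, highest) at 0 h to 27.3, 31.9 and 33.9 CPM at 1 h, and the libraries of the 2 times did not overlap. Its log2 fold change was -0.72 ± 0.0673 (SE; adjusted p = 3.75e-08, edgeR), the same to 2 decimals in WT and in LiTEC cells, with -0.62 in batch 1 and -0.76 in batch 2. It was 60.5 to 78.9 CPM at 4 h, above every 0 h library. It overlaps Gemin7, at a mean of 20.9 CPM, on the opposite strand. It was the only called gene among 28 of core and naive pluripotency: Pou5f1 was at -0.01 ± 0.0708, Nanog at -0.07 ± 0.069 and Esrrb at 0.07 ± 0.0391.

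Rsrp1, for a protein rich in arginine and serine, went from 100, 110 and 131 CPM to 76.5, 83.3 and 93.2 CPM, without overlap (-0.41 ± 0.0415, adjusted p = 1.3e-07, edgeR). At 4 h it was at 149 to 181 CPM. Nemp1, of the inner nuclear membrane, went from 48.5, 51.9 and 55.4 CPM to 37.4, 39.6 and 44.9 CPM, also without overlap (-0.35 ± 0.0465, adjusted p = 4.01e-05, edgeR). Zbtb34, for a BTB zinc finger protein, went from a median of 54.2 to 44.6 CPM with overlapping ranges (-0.29 ± 0.0416, adjusted p = 8.55e-05, edgeR).

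The 3 genes that rose in both genotypes had no overlap between the times. Ap4m1, for a subunit of the AP-4 adaptor complex of membrane traffic, went from 36.5, 41.7 and 49.4 CPM to 52.8, 57.6 and 63.5 CPM (0.48 ± 0.0557, adjusted p = 2.87e-06, edgeR). It overlaps Mcm7 and Taf6 on the opposite strand, and the strand setting of the counting is not given in the sources used here. Dgke, for a diacylglycerol kinase, went from 32.9, 42.8 and 50.3 CPM to 52.5, 61.1 and 64.4 CPM (0.50 ± 0.064, adjusted p = 1.86e-05, edgeR). Slc9a8, for a sodium-proton exchanger of the Golgi, went from 38.6, 40.2 and 43.8 CPM to 51.8, 54.1 and 58.4 CPM (0.42 ± 0.0552, adjusted p = 2.53e-05, edgeR). The 7 genes stayed called on leaving out any of the 12 libraries.

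**Figure D4:**
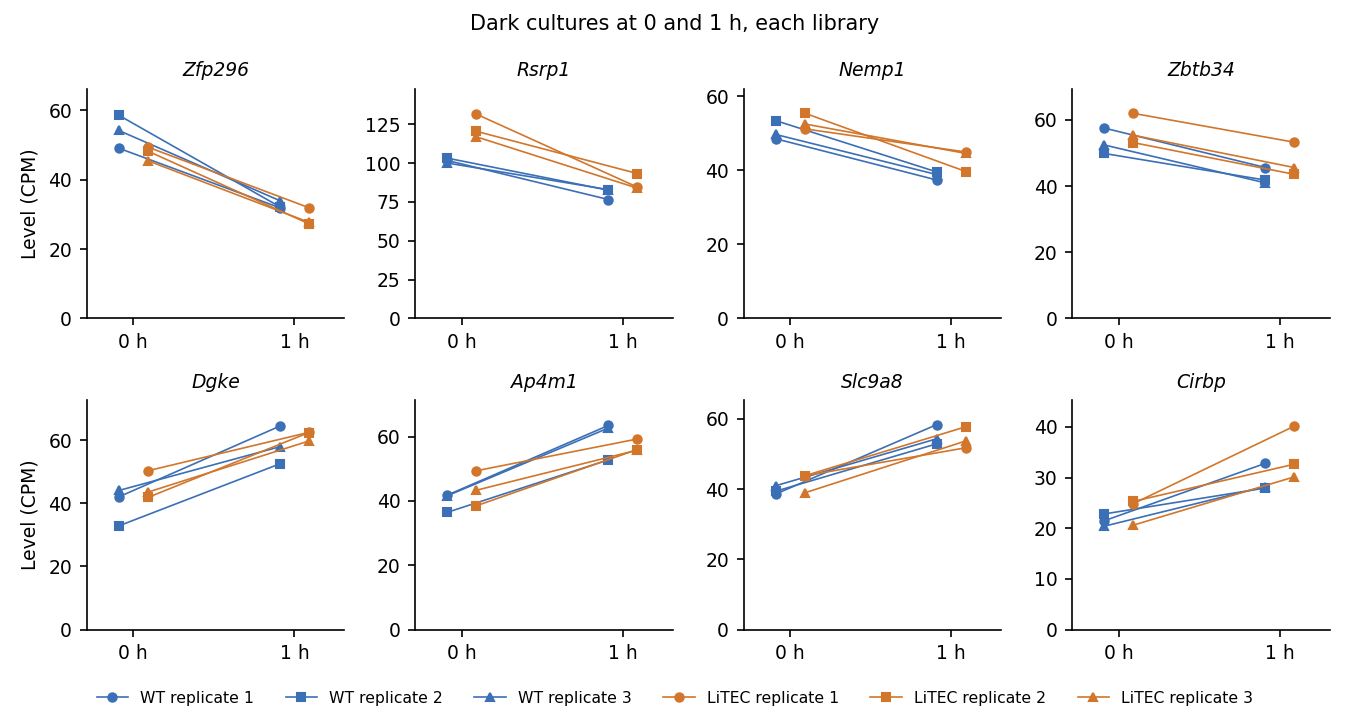
Level (CPM) of 8 genes in each dark library at 0 h and 1 h, with lines joining same-numbered libraries, WT in blue and LiTEC in orange and 1 marker shape per replicate. In each panel every line runs in the same direction, down for Zfp296, Rsrp1, Nemp1 and Zbtb34 and up for Dgke, Ap4m1, Slc9a8 and Cirbp.

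Genes for RNA-binding proteins were looked at next, beside 0.616% of all tested genes called higher and 0.698% called lower. Of 16 listed temperature-responsive RNA-binding proteins, 2 rose, Cirbp and Hnrnpdl, and 1 fell, Rsrp1; the list's median was 0.05. Cirbp, for an RNA-binding protein known for its rise in the cold, went from 20.4, 22.1 and 25.3 CPM to 27.9, 31.4 and 40.1 CPM, without overlap (0.49 ± 0.0821, adjusted p = 0.00068, edgeR), with 0.64 in batch 1 and 0.41 in batch 2. Rbm3, the other classical cold-responsive gene, went from a median of 181 to 189 CPM and was not called (0.07 ± 0.0436, adjusted p = 0.547). Hnrnpdl went from 355 to 408 CPM (0.16 ± 0.0366, adjusted p = 0.0181, edgeR), a call lost without LiTEC 1 h replicate 3, WT 0 h replicate 3 or WT 1 h replicate 1 (adjusted p up to 0.0676). None of 40 splicing factors passed the test (median 0.02). Clk1, for a kinase of splicing factors, was higher at 1 h in every library (118 to 133 CPM against 134 to 146 CPM) at an adjusted p of 0.0684, and with the replicate block its adjusted p was 0.024. Further called genes with roles in RNA processing were named after their values were seen and come from no list. How many of them rose or fell therefore describes the choice only. Ptbp2, for a splicing regulator, went from a median of 69.8 to 89.2 CPM (0.30 ± 0.0576, adjusted p = 0.00324, edgeR). Ccnl1, for a cyclin of kinases that act in splicing, went from 93.8 to 108 CPM (0.24 ± 0.0447, adjusted p = 0.00247, edgeR). Ptbp2 and Ccnl1 had ranges that did not overlap. Ppp1r10, Rbmx and Srek1 rose by 0.35, 0.32 and 0.26 on the log2 scale (adjusted p = 0.00463, 0.00494 and 0.00247, edgeR). Each of them kept its call whichever of the 12 libraries was left out. Mbnl3 and Rbm4 rose by 0.35 and 0.31 (adjusted p = 0.0317 and 0.0283, edgeR), and each stayed called in 3 of the 12 fits without 1 library. Zranb2, for a zinc finger protein that binds splice sites, fell by 0.14 on the log2 scale (adjusted p = 0.0424, edgeR), and Hnrnpul2, of the hnRNP U family, fell by 0.13 (adjusted p = 0.0412, edgeR). Without 1 library their adjusted p reached 0.122 and 0.116.

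Of 565 tested lincRNAs 10 were called higher and 1 lower (1.95%), and of 1061 loci that the annotation marks as to be experimentally tested 19 were called higher and 9 lower (2.64%), where 1.31% of all tested genes were called. Of 183 miRNA genes 0 were called. Whether these shares differ from the rest was not tested. Neat1, the RNA scaffold of nuclear paraspeckles, went from 101, 109 and 132 CPM to 131, 148 and 209 CPM, with overlapping ranges (0.48 ± 0.0821, adjusted p = 0.000871, edgeR). Tsix, the antisense RNA of the Xist locus, went from 34.9, 55.5 and 62 CPM to 53.4, 78.6 and 85.8 CPM with overlap (0.49 ± 0.0858, adjusted p = 0.00134, edgeR). Neat1 was higher in 6 of 6 same-numbered pairs, and so was Tsix. Of 20 measured snoRNA host RNAs 1 rose, Snhg17, from 67, 80.4 and 85.4 CPM to 87.1, 93.4 and 104 CPM (0.29 ± 0.0559, adjusted p = 0.00416, edgeR); the list's median was 0.14. Tsix overlaps Xist on the opposite strand, so its counts are uncertain in the same way as those of Ap4m1. Snhg17 holds snoRNA genes on its own strand, and how reads there were counted is not given in the sources used here.

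Immediate early genes split by member and by batch. Of 30 measured, 3 rose, Nr4a2, Fosb and Cyr61, and 4 fell, Junb, Nr4a1, Btg2 and Arc, where 0.616% of all tested genes were called higher and 0.698% lower. The list's median was -0.00, and its smallest adjusted p, 0.000125 (edgeR), was that of a gene that fell other than Junb. In the libraries of batch 1 Nr4a2, a nuclear receptor gene, went from 3.56 to 16.3 CPM in WT and from 4.52 to 17.1 CPM in LiTEC cells. In the 8 libraries of batch 2 it was 0.833 to 1.37 CPM at 0 h and 1.27 to 1.92 CPM at 1 h. Its fitted log2 fold change of 1.30 ± 0.3 (SE; adjusted p = 0.0183, edgeR) therefore stands beside 1.93 in batch 1 and 0.28 in batch 2. The same held for Fosb (1.27 and 0.30) and Cyr61, a secreted matrix protein gene (1.08 and 0.44). In batch 2 alone 0 of the list were called higher and 1 lower. With no batch term the counts were again 0 and 1, and DESeq2 did not call Nr4a2. The call of Nr4a2 was lost without replicate 1 of any of the 4 groups, that of Fosb without replicate 1 of 3 of them and that of Cyr61 on leaving out any 1 of 7 libraries (adjusted p up to 0.255). Junb, a subunit of AP-1, had -0.41 in batch 1 and -0.45 in batch 2, and fell from 12.9, 17.1 and 21.3 CPM to 9.96, 11.9 and 16 CPM with overlap (-0.45 ± 0.0858, adjusted p = 0.0037, edgeR). It overlaps Prdx2, at a mean of 161 CPM, on the opposite strand, so its counts are uncertain as those of Ap4m1 are.

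In the other lists with a call, 1 or 2 members passed, where 1.31% of all tested genes were called, so a count such as 1 of 59 is near the share over all genes. Id1, an inhibitor of helix-loop-helix factors and a target of BMP signalling, was the only called gene of 16 in the Nodal, BMP and SMAD list, going from 3.1, 6.19 and 7.12 CPM to 1.96, 3.38 and 5.43 CPM with overlap (-0.76 ± 0.143, adjusted p = 0.00318, edgeR). Id3, its relative and named after its values were seen, had a log2 fold change of 0.61 ± 0.182 that missed the threshold (adjusted p = 0.0901) and passed it with the replicate block (adjusted p = 0.00142). Socs3, which feeds back on LIF signalling, was the only called gene of 12 LIF and STAT3 targets. It went from 90.6, 107 and 118 CPM to 73, 86.2 and 91.9 CPM with overlap (-0.35 ± 0.0696, adjusted p = 0.00573, edgeR), with -0.18 in batch 1 and -0.42 in batch 2. Tob1, an antiproliferative gene, fell among 24 nutrient-response genes (-0.33 ± 0.0732, adjusted p = 0.0152, edgeR), and its call was lost on leaving out any 1 of 5 libraries (up to 0.0674). Zfp322a was the only one of 59 measured KRAB and C2H2 zinc finger genes to pass (-0.32 ± 0.0519, adjusted p = 0.000423, edgeR). Of 35 genes of Mediator and pause release, Med1 rose by 0.16 and Ccnt1, for the cyclin of P-TEFb, fell by 0.18 on the log2 scale. Srebf1, which overlaps Rai1 on the opposite strand, rose by 0.18 among 27 cholesterol genes, of which no other was called. The calls of Med1 and Srebf1 were each lost on leaving out any 1 of 9 libraries, and that of Ccnt1 without LiTEC 1 h replicate 2 or WT 0 h replicate 1.

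In 22 of the 33 lists no member was called. Of all tested genes 1.31% were called, so 0 calls in a list of this size is near the share over all genes. These included heat shock and chaperones (0 of 22, median -0.06), the unfolded protein response (0 of 19, -0.10), ATF4 targets (0 of 24, -0.02), p53 targets (0 of 20, -0.03), NRF2 targets (0 of 21, 0.04), hypoxia and glycolysis (0 of 28, -0.00), the circadian clock (0 of 18, -0.03), FGF and ERK feedback (0 of 14, 0.06) and ribosomal proteins (0 of 42, -0.01). The 13 mitochondrially encoded mRNAs had a median of -0.17 and 0 calls. Hspa8, a constitutive chaperone, ran from 1305 to 2094 CPM at 0 h and from 1183 to 1932 CPM at 1 h.

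Other genes with changes among the largest of those with an established name were Zfp819, which rose from 17.1, 23.1 and 27.8 CPM to 28, 33.4 and 38 CPM without overlap (0.55 ± 0.0993, adjusted p = 0.00227, edgeR), and Slc25a42, for a mitochondrial coenzyme A carrier. Slc25a42 fell from 10.7, 12 and 13.9 CPM to 6.28, 9.4 and 10.1 CPM without overlap (-0.52 ± 0.0823, adjusted p = 0.00032, edgeR). Rassf1, a tumour suppressor gene, fell from 15.4, 16.5 and 17.2 CPM to 9.16, 11.3 and 15.1 CPM without overlap (-0.46 ± 0.0923, adjusted p = 0.00511, edgeR). Among genes named after their values were seen, Dtl, for the substrate receptor of a ubiquitin ligase that acts in S phase, rose from 161, 174 and 191 CPM to 195, 214 and 221 CPM without overlap (0.26 ± 0.0371, adjusted p = 7.12e-05, edgeR). Polk, for a translesion DNA polymerase, fell from a median of 31.2 to 24.2 CPM with overlap (-0.34 ± 0.0618, adjusted p = 0.00192, edgeR). These 5 genes stayed called on leaving out any of the 12 libraries. Of the other genes with the largest changes, Aoc2, Gpr160, Ism2, Itgb1bp2, Naaladl1, Platr22 and Tmem81 rose by 0.43 to 0.63, and Bcl6b, Efna3, Spaca6, Tor4a, Zfp189 and Zfp354a fell by 0.45 to 0.50 on the log2 scale. Of these 13, only Zfp189 kept its call whichever library was left out.

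The genotypes were then compared. In WT cells alone 11 genes passed (0.0605% of those tested), 5 higher (0.0275%) and 6 lower (0.033%), beside 1258 at an unadjusted p below 0.05 (6.91%). In LiTEC cells alone 48 passed (0.264%), 15 higher (0.0824%) and 33 lower (0.181%), beside 1503 at an unadjusted p below 0.05 (8.26%). With the replicate block these counts were 43 and 98, and without WT 4 h replicate 3 they were 13 and 79. The difference between the genotypes, tested itself, was called for 0 genes (0.0%) by edgeR and for 0 by DESeq2, with 435 at an unadjusted p below 0.05 (2.39%). The 48 LiTEC genes all had the same sign in WT cells, with a median size of 0.50 in LiTEC and 0.31 in WT, and the 11 WT genes all had the same sign in LiTEC cells, with 0.56 and 0.38. These medians favour the genotype in which the genes were picked. The median of the 24 listed histone genes was -0.23 in WT and -0.41 in LiTEC cells, a difference for which no member passed. Leaving out 1 library gave 4, 3, 4 and 6 calls in WT cells without 0 h replicate 1, 0 h replicate 2, 1 h replicate 1 and 1 h replicate 3. It gave 17, 3, 14, 12 and 2 in LiTEC cells without 0 h replicates 1, 2 and 3 and 1 h replicates 2 and 3.

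Most of the dark changes had the same sign in the lit cultures over the same hour, where the test passed 1758 genes (9.66%). These comprised 931 that rose (5.12%) and 827 that fell (4.55%), and 3897 had an unadjusted p below 0.05 (21.4%). Among the 112 genes that rose in the dark, 107 had the same sign in the lit libraries, 70 were called higher there and 1 was called lower. Of the 127 that fell, 119 had the same sign, 78 were called lower and 1 was called higher. The lit and dark libraries are separate but share batches and replicate numbers. The difference between the lit and the dark change was called for 208 genes (1.14%), 112 upward (0.616%) and 96 downward (0.528%), with 1681 at an unadjusted p below 0.05 (9.24%). The count was 320 with the replicate block, and 9 of the genes that rose and 6 of those that fell were among the 208. Rsrp1 had a log2 fold change of -0.41 in the dark and 0.11 in lit cultures, a difference of 0.53 (adjusted p = 7.86e-07, edgeR). Socs3 had -0.35 and 0.43, a difference of 0.78 (adjusted p = 1.05e-05, edgeR). Banp, for a factor that binds unmethylated CGCG motifs, was named after its values were seen. It had -0.33 and 0.15, a difference of 0.48 (adjusted p = 0.000291, edgeR). Neat1 rose in both, by 0.48 and 0.94. Zfp296 (-0.72 and -0.51), Cirbp (0.49 and 0.75), Dgke (0.50 and 0.26) and Ap4m1 (0.48 and 0.48) did not pass the test of the difference.

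**Figure D5:**
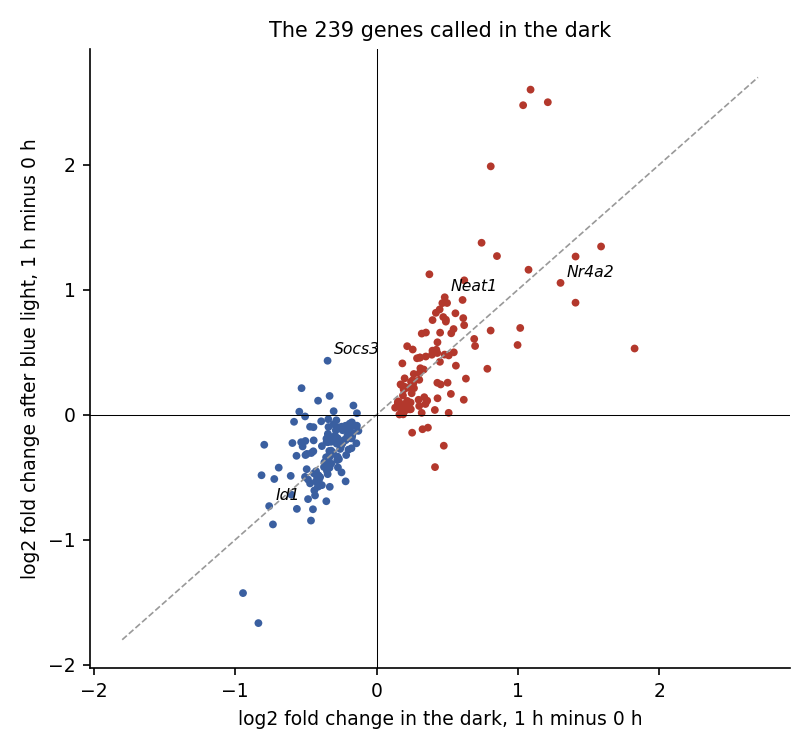
The 239 genes called in the dark, with their log2 fold change from 0 h to 1 h in the dark on the horizontal axis and in lit cultures on the vertical axis, red where higher and blue where lower in the dark. The dashed line marks equal change. Most points lie in the lower left and upper right quadrants, and Socs3 lies in the upper left at -0.35 and 0.43.

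The 4 h dark libraries add a later time, with the 0 h and 1 h libraries shared between the comparisons. Among the genes that rose, the median log2 fold change was 0.38 from 0 h to 1 h, 0.05 from 0 h to 4 h and -0.31 from 1 h to 4 h. Among those that fell it was -0.34, 0.11 and 0.44. Without WT 4 h replicate 3 the values that involve 4 h were 0.04 and -0.29 among the former and 0.09 and 0.42 among the latter. Since the genes were chosen on the 1 h libraries, these values are set side by side only. Cirbp was at 29 to 40.1 CPM at 4 h (38.3 CPM at most without that library), beside 27.9 to 40.1 CPM at 1 h, while Slc9a8 was at 32.5 to 39.3 CPM, Dgke at 29.4 to 50.7 CPM and Ap4m1 at 36.1 to 47.3 CPM, which overlapped or lay below their ranges at 0 h.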

How the data were processed

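Messenger RNA from 36 libraries of mouse embryonic stem cells was sequenced, and the values used are raw counts per gene, as deposited by the authors. The tools named per the submitters' processing notes are FastQC and featureCounts, with mm10/GRCm38. For the aligner, the strand setting and reads with several matches, the choice is not given in the sources used here. All 36 libraries entered 1 fit in edgeR 4.0.16 (R 4.3.3, limma 3.58.1) with TMM scaling, filterByExpr at a minimum count of 10 (18193 genes kept), 12 group means and a batch term, leaving 23 residual degrees of freedom. Batch 1 (replicate 1) and batch 2 (replicates 2 and 3) are as the titles name them. Contrasts averaged both genotypes; the Benjamini-Hochberg adjustment ran over every gene kept. CPM values are TMM-scaled; values within a batch are on the log2(CPM + 0.5) scale. The fit was tested on simulated counts that held no batch effect and no shared deviation of same-numbered libraries, so that test does not cover these. The replicate numbers in the titles pair the libraries: the deviations of same-numbered dark libraries from their group means correlated at r = 0.423 to 0.773. Within batch 2 the difference of replicates 3 and 2 correlated between groups at r = 0.392 to 0.614. The batch term of the main fit does not take out this part, and the replicate block, given as an alternative, does. Alternatives were DESeq2 1.42.0, RLE scaling, other filters, batch and block terms, batch 2 alone, a fold minimum and leaving out each compared library or, added after the values were seen, WT 4 h replicate 3. Genes named were the 15 higher and 15 lower called genes that changed most, leaving out loci with only a provisional name and those averaging under 5 CPM at both times, up to 4 called genes of each list, up to 12 called in the lit and dark difference, and a set of marker genes; those named after their values were seen are said to be. The comparison, the lists and the tests were chosen with earlier results of these data known.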

Additional observations from a re-analysis of the deposited data

Results flagged for a closer look

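The change from 0 h to 1 h differed between lit and dark cultures for 208 genes by edgeR's test of that difference, which compares separate libraries. The 16 of these that were among the genes chosen for naming are given here. Banp, Alkbh1 and Mbd4 among them were named after their values were seen. The lit change was above the dark change, on the log2 scale, by 1.61 for Gm15541, 1.39 for Lrrc75aos2, 1.00 for Dancr, 0.92 for Snhg4, 0.78 for Socs3, 0.61 for Gas5, 0.53 for Rsrp1, 0.53 for Snhg1, 0.48 for Banp, 0.46 for Neat1 and 0.33 for Alkbh1. For the other genes the lit change was below the dark one, with a difference of -1.18 for Gm37531, -0.98 for Gm38190, -0.93 for Gm45493, -0.92 for Gm36527 and -0.31 for Mbd4. The named Gm loci of this group overlap protein-coding genes on the same strand: Fam117b, Tiprl, Agpat5 and Rnf2, in that order. How reads in the shared stretches were counted is not given in the sources used here, so these counts are uncertain.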

How the results depend on the processing

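In all, 218 gene results were followed through the alternatives. They are dark changes and, for some genes, also the difference between the lit and the dark change. None of the 106 called results changed sign, and 37 that were not called did in at least 1 alternative. Among these gene values 4531 stayed on their side of the threshold, 498 lost their call and 91 gained one. The count of 239 became 380 with DESeq2, 41 in batch 2 alone, 86 with no batch term, 526 with the replicate block and 55 with a minimum of 0.5 on the log2 scale. For WT cells 11 became 39, 1, 6, 43 and 6 in the same order, 5 when only the compared libraries were fitted and 71 with no filter. For LiTEC cells 48 became 86, 10, 9, 98 and 24, and 136 with no filter. The genotype difference gave 11 calls with no filter. The lit count of 1758 became 715 in batch 2 alone, 1094 above 5 CPM and 809 with the fold minimum. The lit and dark difference of 208 became 63 in batch 2 alone, 105 above 5 CPM, 118 with no batch term and 320 with the replicate block. The block moved no other such count by over 1.5 times. Leaving out 1 of the compared libraries gave 99 to 271 calls for the dark hour, 3 to 13 in WT, 2 to 50 in LiTEC, 0 for the genotype difference, 1442 to 1678 for lit and 155 to 211 for the difference. Without WT 4 h replicate 3, an alternative chosen after seeing the data, the counts were 345 for the dark hour, 13 in WT, 79 in LiTEC, 0 for the genotype difference, 1998 for lit and 241 for the difference. The histone list went from 14 to 6 calls in batch 2 alone, 5 with no batch term and 18 with the block. Depth was 13272314 to 21842256 counts a library. The cause of these shifts was not tested.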
